A study of Mus musculus with 34 samples.

Results

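The 7 genes examined here encode the machinery that recovers bile acids in the distal small intestine and reports their return to the liver, namely Slc10a2, Fabp6, Slc51a, Slc51b, Nr1h4, Nr0b2 and Fgf15. They were taken as a named set of 7 genes out of 21938 protein-coding genes of GENCODE M21, and the value of each gene was its mean H3K4me3 signal within 1000 bp of the gene 5′ end on mm10. Trimethylation of histone H3 at lysine 4 (H3K4me3) was profiled by CUT&RUN, in which an antibody brings protein A fused to micrococcal nuclease to the mark and the released DNA is sequenced. The 4 libraries came from scraped villus cells of macroscopically normal small intestine, taken from 2 wild-type and 2 ApcMin/+ mice, all on a C57BL/6J background and 5 weeks of age per the labels, while the methods give a slightly older age. ApcMin/+ mice carry a germline mutant allele of the tumor suppressor Apc in every cell and later form intestinal adenomas. Neither the labels nor the methods say which segment of the small intestine was scraped. The libraries of a genotype have 2 replicate numbers, and the methods count 2 mice per genotype. Fewer cells carrying the mark and less mark per cell cannot be told apart in such bulk libraries.

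Bile acids made in the liver are released into the gut, and most of them are taken back by enterocytes of the terminal ileum. Slc10a2 is the apical sodium-dependent carrier that brings them in, Fabp6 is the cytosolic protein that binds them, and Slc51a with Slc51b forms the basolateral carrier that lets them out toward the portal blood. Inside the cell bile acids activate the nuclear receptor FXR, encoded by Nr1h4, which raises transcription of Nr0b2, a corepressor also called SHP, and of Fgf15, the hormone that tells the liver to lower bile acid synthesis. H3K4me3 is deposited around the start sites of genes in use, so its level there is a readout of promoter state rather than of RNA.

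The upstream sequences of 4 of these genes are printed because the signal at their starts falls at opposite ends of the range, with Slc51a and Slc51b marked and Slc10a2 and Fabp6 at background. The RefSeq promoter table (GRCm38.p6, mm10 coordinates) held 6 of the 7 genes, all but Fgf15. Each run is read 5′ to 3′ on the minus strand, on which all 4 genes lie, and ends before the annotated start. Capitals mark motif matches described with the results.
Slc10a2, chr8:5105352-5105537: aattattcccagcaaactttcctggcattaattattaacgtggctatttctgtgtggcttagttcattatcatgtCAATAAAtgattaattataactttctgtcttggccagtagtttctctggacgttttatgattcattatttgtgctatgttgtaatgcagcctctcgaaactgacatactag
Fabp6, chr11:43601563-43601812: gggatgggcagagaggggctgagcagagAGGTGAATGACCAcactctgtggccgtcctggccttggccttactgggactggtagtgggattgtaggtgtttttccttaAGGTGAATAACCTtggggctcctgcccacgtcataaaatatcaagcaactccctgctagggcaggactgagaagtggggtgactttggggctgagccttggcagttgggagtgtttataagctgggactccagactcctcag
Slc51a, chr16:32487880-32488129: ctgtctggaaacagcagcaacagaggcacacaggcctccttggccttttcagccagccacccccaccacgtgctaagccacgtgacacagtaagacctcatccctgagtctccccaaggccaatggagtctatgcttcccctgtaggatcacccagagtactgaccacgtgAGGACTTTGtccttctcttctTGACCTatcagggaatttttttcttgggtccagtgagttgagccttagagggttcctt
Slc51b, chr9:65422956-65423023: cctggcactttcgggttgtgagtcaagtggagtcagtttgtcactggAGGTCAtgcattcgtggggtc

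The deposited tracks hold coverage per base that the authors scaled to 10000000 tags per library, so a signal of 1 stands for the same share of a library in each of them. Depth ranged from 1430000 tags in wild-type replicate 1 to 5470000 in ApcMin/+ replicate 2. Background, taken outside enriched regions and more than 5000 bp from any start, lay between 0.198 in ApcMin/+ replicate 1 and 0.322 in wild-type replicate 2. ApcMin/+ replicate 1 stood apart from the other libraries, with 43.3% of its signal in enriched regions against 11.9% to 22.6%, and with a median of 13.2 over the tested promoters against 3.06 to 4.53. The tests of the bile acid genes are therefore also given without this library and after centring each library on its median promoter. The scraped cells carried the mark at enterocyte genes, 13 of 16 of which reached a mean signal of at least 2. So did 4 of 7 crypt genes, led by Pcna at 10.8 and Mki67 at 8.11. The other 3, Lgr5 at 1.22, Ascl2 at 1.13 and Olfm4 at 0.249, stayed under it. Of all protein-coding genes, 45.3% reached that mean. None of 11 secretory, 8 mesenchymal, 9 immune or 8 non-intestinal marker genes did. The summed signal of the 11 secretory genes was 6.59 to 14.3 per library, that of the mesenchymal genes 3.49 to 6.48 and that of the immune genes 5.42 to 12.3.

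Of the 7 bile acid genes, 5 carried H3K4me3 above background at the 5′ end and reached the mean signal of 2 that was required for a test, as did 45.3% of all protein-coding genes. These were Slc51b, Slc51a, Nr0b2, Fgf15 and Nr1h4, in falling order of mean signal. The 2 that did not were Slc10a2 and Fabp6, the apical carrier and the cytosolic binding protein. Fgf15 and Nr1h4 were under 2 in both wild-type libraries and in ApcMin/+ replicate 2. They reached the mean only through ApcMin/+ replicate 1, at 7.39 and 4.93, so for them the filter itself favoured a higher ApcMin/+ value. The marked genes were those of export, sensing and signalling.

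**Figure D1:**
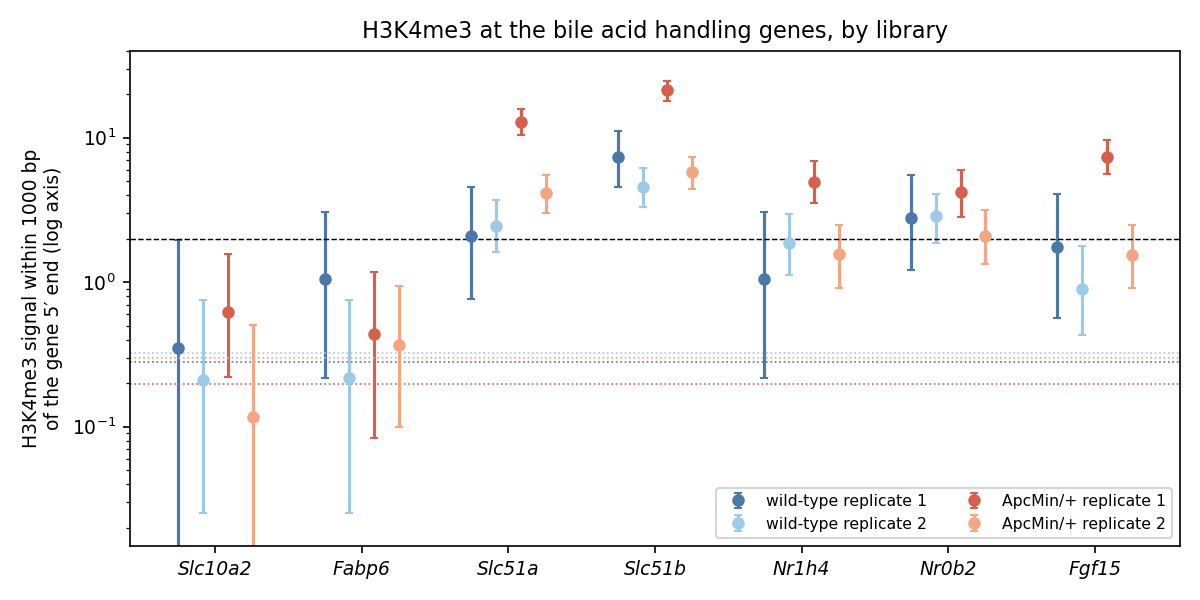
H3K4me3 signal within 1000 bp of the 5′ end of each gene (log axis), 1 point per library, with exact Poisson 95% intervals for counting error as bars, the signal of 2 required for a test as a dashed line and the background of each library as dotted lines. Slc10a2 and Fabp6 lie near the dotted lines, Slc51b is highest in every library, and ApcMin/+ replicate 1 is the highest library at the other 5 genes.

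Slc10a2 (ENSMUSG00000023073.2, chr8:5083219-5105351, minus strand) had a signal of 0.348 and 0.209 in wild-type replicates 1 and 2, and of 0.617 and 0.117 in ApcMin/+ replicates 1 and 2. The genotypes overlapped, with the highest and the lowest library both ApcMin/+. These values rest on 1, 2, 5 and 1 fragments, 9 in all (95% Poisson interval 4.12 to 17.1), where background alone would give 8.62. The mark at the Slc10a2 start was therefore not detectable above background at this depth. In each library the promoter ranked between the 9.35th and the 39.9th percentile of all protein-coding promoters. Poisson intervals in this text treat fragments as independent and cover counting error only.

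Fabp6 (ENSMUSG00000020405.4, chr11:43596049-43601540, minus strand) gave 1.05 and 0.216 in the wild-type replicates and 0.437 and 0.365 in the ApcMin/+ replicates. Wild-type replicate 1, the shallowest library, was the highest, and the ApcMin/+ values lay between the wild-type ones. The 12 fragments over the 4 libraries (interval 6.20 to 20.96) compare with 8.62 from background, so this start too was not distinguishable from background. Among each other, Slc10a2 and Fabp6 were the closest pair of the 7 genes, at a Euclidean distance of 0.69 over the 4 libraries on the log2(signal + 1) scale.

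Slc51b (ENSMUSG00000053862.6, chr9:65412714-65422955, minus strand), which encodes the small beta subunit of the basolateral carrier, had the strongest signal of the 7 genes. It measured 7.32 and 4.59 in the wild-type replicates and 21.2 and 5.75 in the ApcMin/+ replicates. ApcMin/+ replicate 1 was far above the rest, and ApcMin/+ replicate 2 lay between the wild-type libraries, so the genotypes overlapped. The fragment numbers were 21, 44, 157 and 63, or 14.2 to 107 times background. The rank of Slc51b hardly moved between libraries, from the 90.2nd to the 92.2nd percentile, the narrowest range among the 7 genes at 1.997 points.

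Slc51a (ENSMUSG00000035699.8, chr16:32474504-32487879, minus strand), the alpha subunit without which the carrier does not reach the membrane, gave 2.09 and 2.46 in the wild-type replicates and 12.9 and 4.13 in the ApcMin/+ replicates. Both ApcMin/+ libraries lay above both wild-type libraries, on 96 and 45 fragments against 6 and 24. The order was the same by rank, at the 59.7th and 69.7th percentile in wild-type and at the 76.7th and 77.0th in ApcMin/+. Slc51a was below its partner Slc51b in all 4 libraries. The ratio of Slc51a to Slc51b was 0.286 and 0.537 in the wild-type replicates and 0.608 and 0.719 in the ApcMin/+ replicates, without overlap. The ratio in wild-type replicate 1 rests on 6 Slc51a fragments. Those of wild-type replicate 2 and ApcMin/+ replicate 1 rest on 24 against 44 and 96 against 157 fragments. The margin between these 2 ratios was within counting error.

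Nr1h4 (ENSMUSG00000047638.15, chr10:89454234-89533585, minus strand) encodes FXR and has annotated starts in 2 places. At the gene 5′ end the signal was 1.05 and 1.88 in wild-type and 4.93 and 1.56 in ApcMin/+, with ApcMin/+ replicate 2 between the wild-type libraries. At the internal start 26936 bp further into the gene it was 1.74 and 2.30 in wild-type and 11.3 and 2.32 in ApcMin/+. The internal start thus had 1.87 times the mean signal of the 5′ end and was the stronger start in every library. In ApcMin/+ replicate 1 it held 83.5 fragments against 36.6 at the 5′ end. The margin was within counting error in wild-type replicates 1 and 2 (4.99 against 2.99 and 22.1 against 18.0) and in ApcMin/+ replicate 2 (25.4 against 17.1). At the internal start both ApcMin/+ libraries were above both wild-type libraries, but the margin between ApcMin/+ replicate 2 and wild-type replicate 2, on 25.4 and 22.1 fragments, was within counting error.

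Nr0b2 (ENSMUSG00000037583.2, chr4:133553376-133556536, plus strand), the corepressor downstream of FXR, gave 2.79 and 2.87 in wild-type and 4.203 and 2.07 in ApcMin/+. The ApcMin/+ libraries lay on either side of the wild-type ones. By rank, however, both ApcMin/+ libraries were below both wild-type libraries, at the 56.9th and 57.5th percentile against the 65.1st and 74.8th. The rank in wild-type replicate 1 rests on 8 fragments, with a signal interval of 1.21 to 5.51, so its margin was within counting error. Nr0b2 had 8, 27, 31 and 23 fragments, and its signal rose least in ApcMin/+ replicate 1 among the 5 genes above background.

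Fgf15 (ENSMUSG00000031073.6, chr7:144896531-144900953, plus strand), the hormone gene, gave 1.74 and 0.893 in wild-type and 7.39 and 1.54 in ApcMin/+. Only ApcMin/+ replicate 1 was above both wild-type libraries. The window holds 5, 9, 55 and 17 fragments. It also covers the start of the antisense gene Gm26793, 930 bp away on the other strand, and since the mark has no strand the signal of the pair cannot be told apart. No other annotated gene started within 2000 bp of any of the 7 genes.

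The order of the genes by level was firm at the top and loose in the middle. Slc51b exceeded Slc51a in 4 of 4 libraries. Slc51a exceeded Nr0b2 in 2 of 4, Nr0b2 exceeded Fgf15 in 3 of 4, and Fgf15 exceeded Nr1h4 in 2 of 4. Nr1h4 exceeded Fabp6 in 3 of 4 and Fabp6 exceeded Slc10a2 in 3 of 4, so none of these neighbours was separated in every library.

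**Figure D2:**
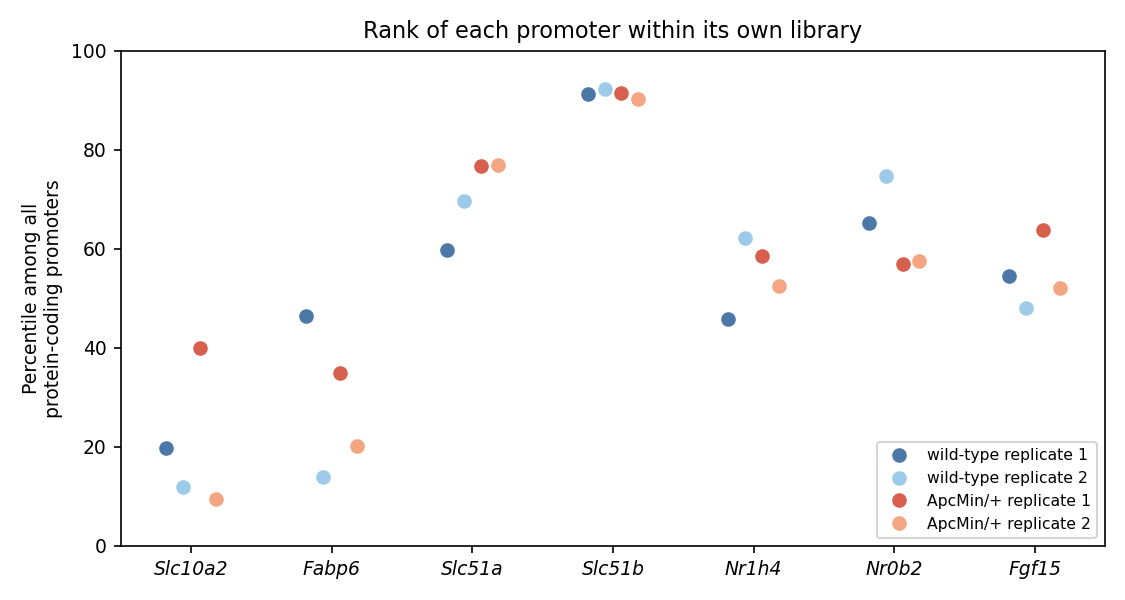
Percentile of each promoter among all 21938 protein-coding promoters of the same library, 1 point per library. Slc51b stays between the 90.2nd and 92.2nd percentile. Both ApcMin/+ libraries are above wild-type at Slc51a and below it at Nr0b2, where wild-type replicate 1 holds only 6 and 8 fragments. Slc10a2 and Fabp6 spread over 30.53 and 32.56 points on few fragments.

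The shape of the signal separated the marked from the unmarked starts in the same way. Profiles were drawn at a resolution of 100 bp out to 5000 bp, with downstream in the direction of transcription. At Slc51a the highest bin lay 300 to 400 bp downstream of the start in all 4 libraries, and the 1000 bp downstream held a mean of 8.85 against 1.95 upstream. At Slc51b the signal sat over the start itself, with a highest mean bin just upstream of it and 13.5 downstream against 5.97 upstream. The internal start of Nr1h4 had its highest bin 100 to 200 bp downstream in all 4 libraries, and there the peak reached 17.0 and 12.9 in wild-type and 48.9 and 11.4 in ApcMin/+. At the 5′ end of Nr1h4 the peak was lower, with 7.27 and 6.54 in wild-type, and lay 200 to 300 bp downstream in 3 of the 4 libraries. Nr0b2 and Fgf15 had weaker and less sharply placed signal, with highest mean bins of 6.83 and 6.38. At Slc10a2 the highest bin within 5000 bp was 1700 to 1800 bp upstream of the start, and at Fabp6 no bin reached a mean of more than 2.10.

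**Figure D3:**
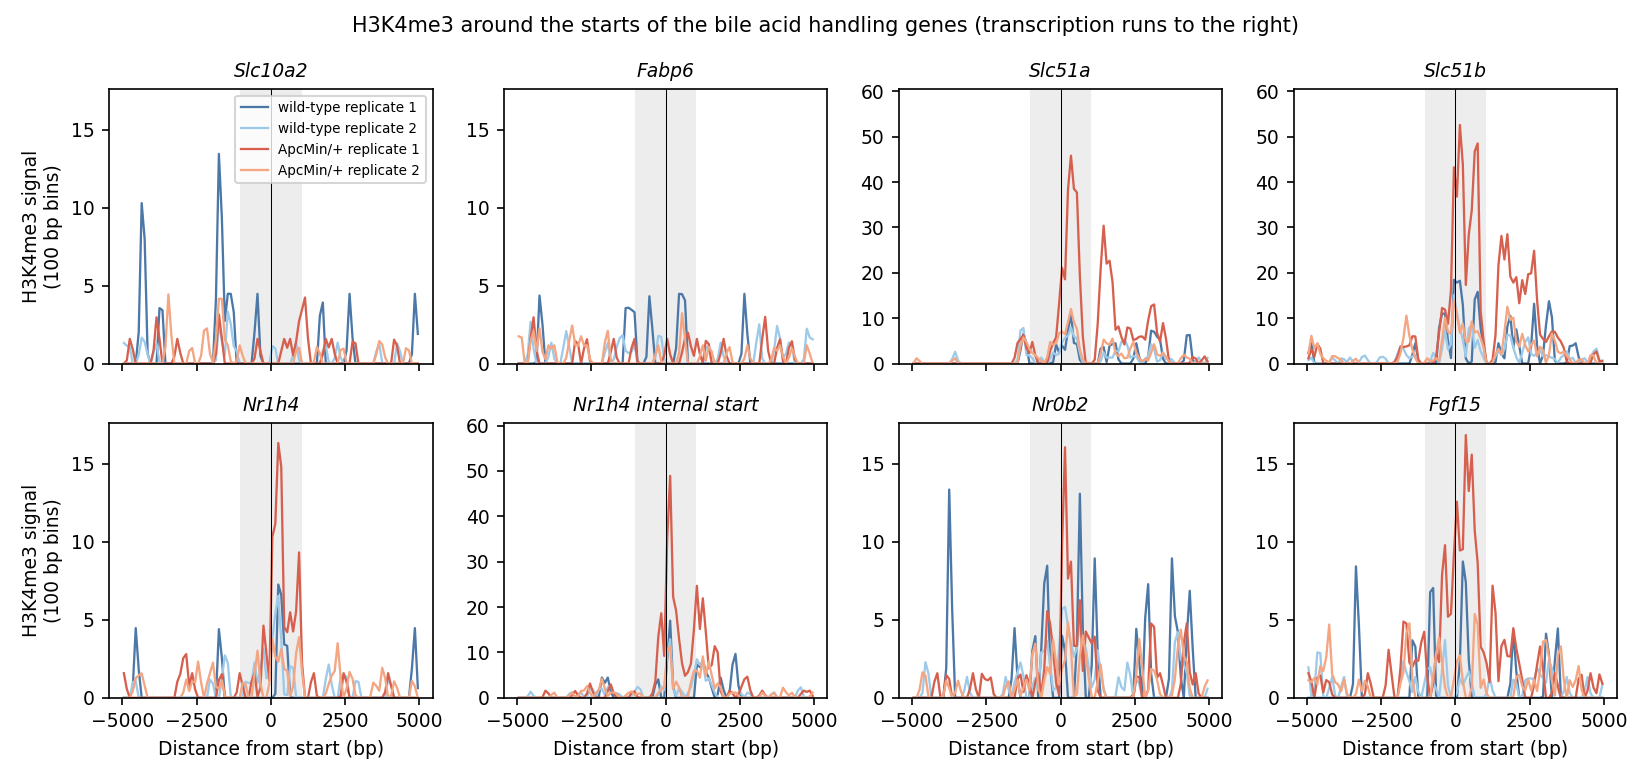
H3K4me3 signal in bins of 100 bp against distance from the start of each gene, with transcription to the right, 1 line per library, and the window of 1000 bp on each side shaded. The signal axes differ between panels, reaching about 60 for Slc51a, Slc51b and the internal start of Nr1h4 and about 17 for the other panels. Marked starts show a peak within or just downstream of the start, whereas Slc10a2 and Fabp6 show only peaks of few fragments. All 4 libraries have signal in the highest peak upstream of Slc10a2.

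For regions of enrichment, a single set was made from the average of the 4 tracks, where bins of 100 bp exceeded the genome-wide mean of 0.366 at least 5 times. Such a region covered the gene 5′ end of 5 of the 7 genes, the same 5 that were above background, against 49.8% of all protein-coding genes. The regions over Slc51b (4300 bp) and Slc51a (3900 bp) were long, at the 93.7th and 91.1st percentile of regions over gene starts, whose median length was 1900 bp. The region over Fgf15 was 2600 bp, that over Nr0b2 2200 bp, and Nr1h4 had 1 of 2800 bp over its internal start and 1 of 1300 bp over its 5′ end. Over the whole Slc51b region, the signal was 5.68 and 3.41 in wild-type and 17.8 and 5.07 in ApcMin/+. Over the Slc51a region it was 2.50 and 2.34 in wild-type and 12.9 and 3.32 in ApcMin/+, again without overlap. Each region contains most of the window around its start, so these values are not independent of it.

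Slc10a2 had a single enriched region within 10000 bp of the gene, 1350 bp upstream of its start and 500 bp long (chr8:5106701-5107200). Its signal was 7.21 and 1.93 in wild-type and 1.08 and 2.42 in ApcMin/+, which corresponds to 5.16, 4.62, 2.001 and 6.63 fragments. Wild-type replicate 1, the shallowest library, gave the highest signal, while ApcMin/+ replicate 2 held the most fragments. All 4 libraries were above their background of 0.198 to 0.322 there, each on few fragments and in a region picked for its mean signal. Fabp6 likewise had a single region, of 800 bp and 8561 bp upstream of its start, with 2.001 to 8.97 fragments per library.

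The question of the design, whether H3K4me3 differs between ApcMin/+ and wild-type villus cells before tumors form, was asked of each gene with limma on log2(signal + 1) over the 9930 promoters whose mean reached 2. None of the 5 bile acid genes in that test was called at an adjusted p under 0.05, and neither was any other promoter (0 of 9930, or 0%; 132 had an unadjusted p under 0.05). Exact two-sided permutation tests of single genes gave p = 0.333 for Slc51a, which is the smallest value that 2 libraries against 2 allow, and p = 0.667 to 1 for the other 6 genes. Because of ApcMin/+ replicate 1, the median tested promoter was itself 0.85 higher in ApcMin/+ on the log2 scale. The median over the 5 tested bile acid genes was 0.84. Over all 7 it was 0.68, where the median of all 21938 promoters without a filter was 0.35. The summed signals of the immune and mesenchymal markers were also higher in both ApcMin/+ libraries. They were 6.06 and 5.42 in wild-type and 12.3 and 9.24 in ApcMin/+ for the immune markers. For the mesenchymal markers they were 3.49 and 4.59 against 6.48 and 6.47. No gene of either list reached a mean signal of 2. Single genes did not all follow, with negative log2 differences at Cd3e, Ms4a1, Csf1r and Acta2. Cd74 alone gave 3.57 of the immune sum in ApcMin/+ replicate 2. The part of these markers in the differences at the bile acid genes was not tested.

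Slc51a averaged 2.28 ± 0.262 in wild-type and 8.52 ± 6.20 in ApcMin/+ (mean ± SD, n = 2 each), a log2 difference of 1.37 with an SE of 0.90 (limma adjusted p = 0.683). Fgf15 averaged 1.32 ± 0.601 and 4.46 ± 4.13, a log2 difference of 1.02 with an SE of 0.65 (limma adjusted p = 0.683). Both exceeded the median promoter, though Fgf15 had passed the filter only through ApcMin/+ replicate 1. Slc51b averaged 5.95 ± 1.93 and 13.5 ± 10.9, a log2 difference of 0.84 with an SE of 1.21, at the level of the median promoter. Nr1h4 averaged 1.46 ± 0.589 and 3.25 ± 2.39, a log2 difference of 0.68 with an SE of 0.62, and Nr0b2 averaged 2.83 ± 0.0587 and 3.14 ± 1.51, a log2 difference of 0.062 with an SE of 0.74 (limma adjusted p = 0.683 and 0.937). For the untested genes the means were 0.279 ± 0.0987 and 0.367 ± 0.354 at Slc10a2 and 0.632 ± 0.588 and 0.401 ± 0.0505 at Fabp6.

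After each library was centred on its median promoter, the differences were 0.51 for Slc51a, 0.16 for Fgf15, −0.0092 for Slc51b, −0.17 for Nr1h4 and −0.79 for Nr0b2. The adjusted p of the centred limma fit was 1.00 for each of these 5 genes, while 12 of all 9930 promoters were called (0.121%). Centring lowers every difference by the same 0.85, so these values restate how far each gene lay from the median promoter, with Slc51a and Fgf15 above it, Slc51b at it, and Nr1h4 and Nr0b2 below it. Slc51a was the only 1 of the 7 genes at which both ApcMin/+ libraries were above both wild-type libraries, with and without centring, where 38.5% of tested promoters showed this order as deposited and 13.1% after centring. After centring, both ApcMin/+ libraries were below both wild-type libraries at 1 of the 5 tested genes, Nr0b2, against 14.3% of tested promoters. The untested Slc10a2 and Fabp6 had this order too, but that share does not cover promoters under the filter. At the latter pair the signal was background, which centring lowers in the library with the highest promoters. As deposited none of the 7 had this order, against 0.161% of tested promoters.

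Without ApcMin/+ replicate 1, the log2 difference of Slc51a fell to 0.65, that of Fgf15 to 0.16 and that of Nr1h4 to 0.077, and those of Slc51b and Nr0b2 turned to −0.016 and −0.32 (none called). Without ApcMin/+ replicate 2, which leaves the high library alone, Slc51a, Fgf15 and Nr1h4 passed the threshold with log2 differences of 2.09, 1.88 and 1.29 (limma adjusted p = 0.000442, 0.000829 and 0.0156), as did 6479 of all 9930 promoters. In these fits the lone library is assumed to vary like the wild-type pair. The median tested promoter was at 0.13 without ApcMin/+ replicate 1 and at 1.58 without ApcMin/+ replicate 2. As deposited, the size of each difference thus rested on ApcMin/+ replicate 1. After centring, that of Slc51a was 0.52 without ApcMin/+ replicate 1 and 0.51 without ApcMin/+ replicate 2, and it was 0.21 and 0.82 when wild-type replicates 1 and 2 were left out in turn (none called).

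**Figure D4:**
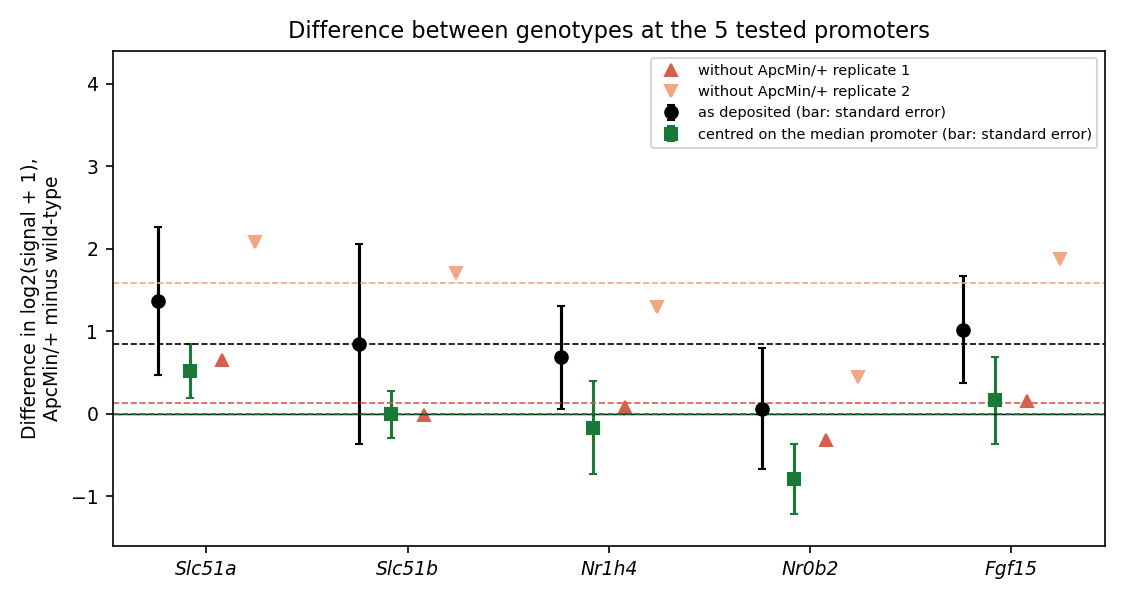
Difference in log2(signal + 1), ApcMin/+ minus wild-type, at the 5 tested bile acid genes, as deposited and after centring (bars, SE of the limma fit) and without each ApcMin/+ library (no bars), with the median of all tested promoters in each setting as a dashed line of the same color (0.85, −0.0080, 0.13 and 1.58 in the order given). Slc51a is above 0 in all 4 settings, Nr0b2 is lowest in all 4, and leaving out 1 or the other ApcMin/+ library moves each gene down or up.

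The CpG content of the promoters, which the choice of the genes did not use, ranged from the 31.4th to the 51.4th percentile of all promoters. In the 300 bases from 250 before to 50 after the RefSeq start, the 6 genes in the table held 3 CpG (Fabp6, Slc51a and Nr0b2), 4 (Slc51b), 5 (Slc10a2) and 7 (the internal start of Nr1h4), where the median over 32807 promoters was 7. Starts with so few CpG were less often marked in these libraries, and a mean signal of at least 2 was reached by 4.08% of promoters with 0 to 4 CpG, by 16.1% of those with 5 to 9 and by 77.7% of those with 20 or more. Against promoters within 1 CpG of its own count, Slc51b ranked at the 99.3rd percentile, Slc51a at the 97.8th, Nr0b2 at the 96.4th and the internal start of Nr1h4 at the 90.3rd. Slc10a2 and Fabp6 ranked at the 24.9th and 60.6th percentile on the same scale. The moderate levels of Slc51a and Nr0b2 among all promoters are thus among the highest for promoters of their CpG content.

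**Figure D5:**
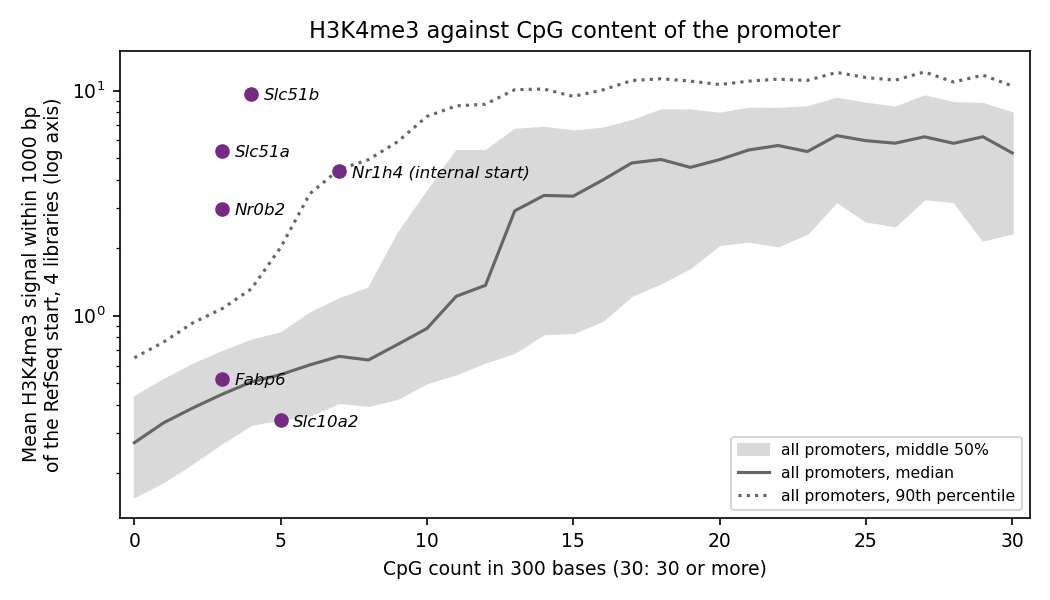
Mean H3K4me3 signal of the 4 libraries within 1000 bp of the RefSeq start (log axis) against the CpG count of the 300 bases around it, with the median, the middle 50% and the 90th percentile of all promoters at each count. Slc51b, Slc51a and Nr0b2 lie far above the 90th percentile of promoters with as few CpG, the internal start of Nr1h4 lies near it, and Fabp6 and Slc10a2 lie within or at the edge of the middle 50%.

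Motifs of factors known to act on these genes were searched on both strands of the same 300 bases, and no match overlapped another. FXR binds an inverted repeat of 2 hexamers with 1 base between them, AGGTCANTGACCT, and with at most 2 mismatches this was found in 1.14% of promoters and in 1 of the 6 genes. That gene was Fabp6, which held 2 such matches, with first bases at −222 and −142 from the RefSeq start, each with 2 mismatches. Both are in capitals in the Fabp6 sequence given earlier, and they stand in a promoter whose H3K4me3 was at background. The single hexamer AGGTCA, present in 16.3% of promoters, was found in Slc51a (position −58, on the opposite strand), Slc51b (−203) and at the internal start of Nr1h4 (−214, on the opposite strand).

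Slc10a2 held 3 matches to TTTATGG or TTTATTG, the letters bound by CDX factors, which specify intestine, where 7.20% of promoters held any. Of these, 1 lies in the printed stretch and the others lie between it and the RefSeq start. The HNF4 letters CAAAGTCCA with at most 1 mismatch, in 8.48% of promoters, were found in Slc51a at −79, and the GATA letters AGATAA, in 11.2%, at the internal start of Nr1h4 at −131. Nr0b2 held none of these letters. These matches describe letters in a window and say nothing of binding.

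Other genes of the pathway gave the context for these levels. Of 13 bile acid and sterol carriers of the enterocyte, 10 were tested and 0 were called in either direction. The strongest of them were Abcg5, a sterol exporter, at a mean signal of 20.6, and Npc1l1, the cholesterol importer, at 20.1, both above Slc51b at 9.72. Of 18 receptors and transcription factors acting on bile acid genes, 15 were tested and 0 were called, led by Nr1i2, the xenobiotic receptor PXR, at 17.2, against 2.35 for Nr1h4 at its gene 5′ end. Of 6 signalling partners of Fgf15, 3 were tested and 0 called, led by Malrd1, which promotes Fgf15 production, at 7.63. Of 15 genes of hepatic bile acid synthesis and uptake, 3 were tested and 0 called, and the median mean signal of this list was 0.807, between those of Fabp6 and Nr1h4. The median log2 differences over the tested genes of these lists were 0.86, 0.91, 0.74 and 0.63 as deposited, in the order given. After centring they were 0.0046, 0.054, −0.11 and −0.22, and no gene of the lists was called on either scale. These medians leave out the untested genes, which were 12 of the 15 hepatic genes. As deposited, the log2 differences of those 12 ran from −0.46 at Slc27a5 to 0.64 at Scp2.

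The promoters most like the mean profile of the 7 bile acid genes over the 4 libraries were Sfxn4, Ankrd52, Cdc42bpa, Gtf3c3 and Irx3, at Euclidean distances of 0.10 to 0.14 in log2(signal + 1). That mean is the pattern of no single gene, since the 7 lay up to 5.73 apart on the same scale (Slc10a2 to Slc51b).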

How the data were processed

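H3K4me3 CUT&RUN tracks of 2 wild-type and 2 ApcMin/+ mice were used, and samples were grouped by their titles. The authors trimmed read pairs, aligned them to mm10 with Bowtie2, removed duplicates with Picard, and filtered on mapping quality and fragment size. The deposited values are signal, the coverage per base that HOMER wrote and the authors scaled to 10000000 tags and for fragment length. No control was subtracted and replicates were not pooled. Fragments were obtained from the summed signal and the sum of the track per tag, and their intervals are exact Poisson intervals.

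Promoter values are means over 1000 bp on each side of GENCODE M21 gene 5′ ends. Promoters with a mean of at least 2 were tested with limma 3.58.1 in R 4.3.3 (trend, log2(signal + 1), Benjamini-Hochberg adjustment, threshold 0.05), which was tested on simulated data. Enriched regions were stretches of at least 300 bp of bins (100 bp) reaching 5 times the mean of the genome, with gaps up to 500 bp closed. Python 3.11.15, numpy 2.4.6, pandas 2.3.3, scipy 1.17.1 and matplotlib 3.10.9 did the rest. The 7 genes and the other gene lists were chosen with earlier results of these data known. By rule, all 7 genes are named, from each other list the 3 promoters with the highest mean signal (of which the text gives some) and any called, and the 5 promoters nearest to the mean of the 7. Depth was 1430000 and 4790000 tags in wild-type and 3700000 and 5470000 in ApcMin/+ replicates 1 and 2. The alternatives were centring, quantile normalization, scaling to background, pseudocounts of 0.1 and 5, no filter or a mean of 5, windows of 500 and 2000 bp, the strongest annotated start, a replicate block, and leaving out each library. Other marks, RNA and older mice are not analysed here. The values of 1 gene of the lists and the matches of 1 motif are not reported here.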

Additional observations from a re-analysis of the deposited data

How the results depend on the processing

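No bile acid gene was called under any alternative other than leaving out ApcMin/+ replicate 2, and with a library left out the count ranged from 0 to 3. Among all promoters the count of 0 became 12 after centring, 2 after quantile normalization, 1 with the replicate block, 15 with the block and centring, and 0 to 6479 with a library left out (6479 without ApcMin/+ replicate 2). Same-numbered libraries deviated together with a correlation of 0.20, and with only 2 pairs the numbers do not establish a pairing. The block called none of the 7 genes. The number of the 7 with a higher ApcMin/+ mean was 6 as deposited, 2 after centring with or without the block, and 3 to 7 with a library left out. The number with both ApcMin/+ above both wild-type libraries was 1 as deposited, 2 with the window of 2000 bp and at the strongest annotated start, and 1 to 6 with a library left out. The median over the 7 went from 0.68 to −0.17 after centring with or without the block, and ranged from −0.016 to 1.29 with a library left out.

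Slc51a and Fgf15 kept their direction in all alternatives that gave a value. Slc51b reversed to −0.0092 after centring, with or without the block, and to −0.044 after quantile normalization, Nr1h4 to −0.17 and −0.16, and Nr0b2 to −0.79 and −0.72. Centring does this by construction, since it lowers every difference by the same 0.85. Quantile normalization likewise brought the median tested promoter from 0.85 to 0.00027, and its effect on single genes was not tested further. With a library left out, Slc51b ranged from −0.016 to 1.70 and Nr0b2 from −0.32 to 0.44, and Slc51a, Fgf15 and Nr1h4 stayed above 0.

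With centring and a library left out, the promoters called were 2 and 18 for wild-type (replicates 1 and 2 left out in turn) and 0 and 30 for ApcMin/+, and in the same order the genes with a higher ApcMin/+ mean were 3, 3, 2 and 3, the genes with both ApcMin/+ above the wild-type libraries 2, 2, 1 and 3, and the medians −0.64, −0.074, −0.14 and −0.29. In these fits Nr0b2 was at −1.03, −0.55, −0.44 and −1.14, Nr1h4 reversed to −0.64, −0.050 and −0.29 (not without wild-type replicate 2), and Slc51a was at 0.21, 0.82, 0.52 and 0.51. Slc51b reversed to −0.074 without wild-type replicate 2 and −0.14 without ApcMin/+ replicate 1.

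Nr1h4, Nr0b2 and Fgf15 fell under a filter at a mean of 5, and Nr1h4 and Nr0b2 under the filter in the window of 2000 bp. Quantile normalization was applied to tested promoters only, so it gives no value for Slc10a2, Fabp6 or the median over 7. Depth limits the low promoters most, with a median of 13.0 fragments at a tested promoter in wild-type replicate 1 against 97.7 in ApcMin/+ replicate 1.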

Other observations

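Genes that mark segments of the gut were measured in the same libraries. Of 5 genes of vitamin B12 uptake, a function of the ileum, 4 were tested and 0 called as deposited or after centring. Amn, the partner of the receptor cubilin, led them. Its signal was 11.1 and 2.66 in wild-type and 13.5 and 6.02 in ApcMin/+ replicates 1 and 2. After centring, the median of the 4 was −0.063, and 1 of them had both ApcMin/+ libraries below both wild-type libraries. That was Cubn, the gene of cubilin, at −0.69. Of 15 genes of the proximal small intestine, 8 were tested and 0 called as deposited or after centring. They were led by Slc2a2, the basolateral glucose carrier, at a mean signal of 7.05, and by Lct, the gene of lactase, at 6.19. The 8 tested genes had a median log2 difference of 0.46 against 0.85 for all tested promoters. After centring, 6 of these 8 had both ApcMin/+ libraries below both wild-type libraries, against 14.3% of all tested promoters, and their median was −0.40. Onecut2, a transcription factor of the proximal intestine, was at 7.001 and 3.36 in wild-type and 10.1 and 1.93 in ApcMin/+.

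Of 6 colon genes, 5 were untested, with log2 differences from −0.027 at Slc26a3 to 0.70 at Muc3a. Only Car4, a carbonic anhydrase, reached the test, at 1.74 and 0.654 in wild-type and 22.2 and 3.20 in ApcMin/+. With a wild-type mean of 1.20, Car4 passed the filter only through the ApcMin/+ libraries, which favours a higher ApcMin/+ value. Its log2 difference was 2.21 as deposited (limma adjusted p = 0.683) and 1.36 after centring (limma adjusted p = 0.126), so it was not called, with both ApcMin/+ libraries above both wild-type libraries on either scale. Whether the wild-type and ApcMin/+ samples came from the same stretch of small intestine is not given in the sources used here, and its part in the values of the bile acid genes was not tested.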
